A study of Mus musculus with 8 samples.

Results

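Genes of fat storage and lipid handling, 10 in all (Lpl, Cd36, Fabp4, Plin4, Lep, Adipoq, Cidec, Plin1, Adig and Retn) were followed in CT26 tumors from mice given vehicle, the EP4 antagonist TP-16, an anti-PD-1 antibody or both agents. They were chosen by name: every mouse probe whose array annotation carries 1 of the 10 symbols was taken, which gave 19 of 56567 probes and 10 of 37058 gene names. All 10 genes and 18 of their 19 probes passed the filter for testing, which asks for a group whose 2 arrays both lie well above background, and 12 probes did so on all 8 arrays.

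CT26 is a colon carcinoma line from BALB/c mice. The tumors grew under the skin of female BALB/c mice from 500000 implanted cells, and the mice were treated for 2 weeks with vehicle, with TP-16 by mouth every day (75 mg/kg; labelled BY001), with anti-PD-1 antibody injected into the peritoneum (50 µg per mouse, 2 doses a week), or with both agents at these doses. EP4, the target of TP-16, is bound by prostaglandin E2, and PD-1 restrains T cells. Each group had 2 biological replicates, and the labels name no engineered allele. Whether a replicate was 1 tumor or a pool is not stated, so the p-values measure only the spread between these samples.

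These genes fall into classes that meet in a tumor under the skin. Adipocytes store fat in droplets coated by perilipin 1, keep the droplets large with the help of CIDEC, and secrete adiponectin, leptin and, in mice, resistin. Lipoprotein lipase (Lpl) releases fatty acids from circulating triglyceride, CD36 takes fatty acids and oxidised lipoproteins into cells, and FABP4 carries fatty acids inside them. Fat cells make these last 3 proteins, but so do macrophages, and CD36 and FABP4 are also found in endothelium, so a change in any of them in whole tumor tissue has no single cell of origin.

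The probes are 60-base oligonucleotides, positioned by the array annotation in the mm9 build. Of those below, the Adipoq and Lep probes gave the values of their genes, while the Lpl, Fabp4 and Retn probes are further probes of their genes, whose own values are given beside the brightest one. They are shown because 2 of them read different stretches of the Lpl transcript and the others read the secreted fat cell products and Fabp4. The brightest probes of Lpl (A_51_P259296, chr8:71430267-71430326, position 3484 of transcript NM_008509), Fabp4 (A_51_P336833) and Retn (A_55_P2428514) gave the main values of these 3 genes and are named without their letters. The Lpl probes lie on the plus strand at chr8:71419652-71419711 (A_66_P123790, position 830 of the same transcript, whose combination difference did not pass) and chr8:71425050-71425109 (A_52_P257812, position 1340, whose combination difference passed). The Fabp4 probe lies on the minus strand at chr3:10208442-10208501, and the Adipoq, Lep and Retn probes lie on the plus strand at chr16:23157576-23157635, chr6:29020910-29020969 and chr8:3657312-3657371. The exons around these positions were not looked up, as no annotation of that build was used here.
Lpl A_66_P123790: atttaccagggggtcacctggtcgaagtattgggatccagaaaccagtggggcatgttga
Lpl A_52_P257812: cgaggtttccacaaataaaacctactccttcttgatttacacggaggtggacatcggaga
Fabp4 A_52_P564544: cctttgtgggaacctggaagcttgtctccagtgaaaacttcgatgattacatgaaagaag
Adipoq A_51_P458451: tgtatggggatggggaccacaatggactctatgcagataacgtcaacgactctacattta
Lep A_66_P113053: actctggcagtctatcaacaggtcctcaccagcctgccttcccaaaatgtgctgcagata
Retn A_55_P1984806: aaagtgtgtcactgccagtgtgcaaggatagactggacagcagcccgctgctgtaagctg

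Each value below is the log2 intensity of a probe minus the 75th percentile of its array, so 0 is the level of that percentile, and values are compared between arrays and never between probes. Where several probes read a gene, the one that was brightest on average stands for it. The percentile ranged from 371.1 to 733.6 in intensity units, 51.4% to 59.7% of probes were well above background, and no probe was saturated. The arrays shared 1 slide and 1 scan, with slide row following antibody and slide column following TP-16, so that position and treatment cannot be told apart. Genes were called higher or lower by the cutoffs in the study's methods, 2-fold or more and an unadjusted p (here from limma) of 0.05 or less, and adjusted p-values (limma, Benjamini-Hochberg over all tested probes) are given beside it. Macrophage and fibroblast genes were plainly present, and 6 of 9 colon epithelium markers passed the filter.

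The 2 vehicle arrays differed in part of their fat cell signal. Vehicle replicate 2 was above replicate 1 by 1.80 for Adipoq, 1.73 for Cidec, 1.50 for Plin1 and 1.41 for Adig on the log2 scale, while Retn differed by 0.63 and Lep by 0.16. Plin1 on vehicle replicate 1, which enters the mean below, was not well above background, so 1.50 gives no measured size. Plin4 differed by 1.12, Lpl by 0.46, Cd36 by 0.24 and Fabp4 by 0.01. The mean of Adipoq, Plin1 and Cidec was -3.39 and -1.71 on these arrays. A list of 22 other adipocyte markers, 19 of them tested, showed the same order, with a mean level of -1.67 and -0.85. The summed linear level of these 19 markers differed less, at 40.7 and 53.2 times the 75th percentile. That of 16 skeletal muscle markers also differed, at 35.1 and 90.2. The part of fat or muscle content in this difference was not tested, and the values without each vehicle array are given for the fat cell genes. In a fit without 1 array, the array left in its group is assumed to vary like the other groups. The 2 vehicle arrays held most of the replicate spread of Adipoq (SD 1.3, against 0.069 to 0.27 in the treated groups) and Cidec (1.2, against 0.01 to 0.38), so that leaving out either one lowers the fitted error, and the p-values and calls of such fits are given as a description.

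Lpl showed the widest range of the 10 genes. Its level was -0.67 and -0.21 in the vehicle tumors, 1.95 and 0.59 with TP-16, 1.36 and 1.05 with anti-PD-1, and 2.99 and 3.81 with the combination. Every treated array was above both vehicle arrays, and both combination arrays were above all the others. The combination was 14.3-fold above vehicle (log2 difference 3.84 ± 0.50 (SE, n = 2 per group); limma adjusted p = 0.0102). TP-16 alone was 3.29-fold above vehicle (1.72 ± 0.50; limma adjusted p = 0.118), and anti-PD-1 alone 3.13-fold (1.65 ± 0.50; limma adjusted p = 0.286). The single-agent differences passed only before adjustment, and neither was called without vehicle replicate 1 (1.48 and 1.42) or without replicate 1 of the treated group (1.04 and 1.49). By the methods' t-test TP-16 called none of the 10 genes, so that its Lpl difference was not called there either. The combination stayed called with any array left out, at a limma adjusted p of 0.0650 without combination replicate 2. In whole tissue, more cells of a type and more RNA per cell cannot be told apart.

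Cd36 was also highest with the combination, with the single agents between it and vehicle. Its level was -0.73 and -0.49 with vehicle, 0.50 and -0.20 with TP-16, 0.72 and 0.42 with anti-PD-1, and 1.20 and 2.16 with the combination. As with Lpl, no treated array overlapped with vehicle and the combination arrays were the highest. The combination was 4.88-fold above vehicle (2.29 ± 0.38; limma adjusted p = 0.0122) and anti-PD-1 2.27-fold (1.18 ± 0.38; limma adjusted p = 0.297). The anti-PD-1 call was lost without vehicle replicate 1 (1.06) or anti-PD-1 replicate 1 (1.03) and after normexp background correction (0.99), and the adjusted p of the combination was 0.0675 (limma) without combination replicate 2. The TP-16 difference of 0.76 did not pass (95% interval -0.17 to 1.68; limma adjusted p = 0.259). Over the 8 arrays the levels of Lpl and Cd36 correlated at r = 0.97, a description in which the arrays share their treatment groups.

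**Figure D1:**
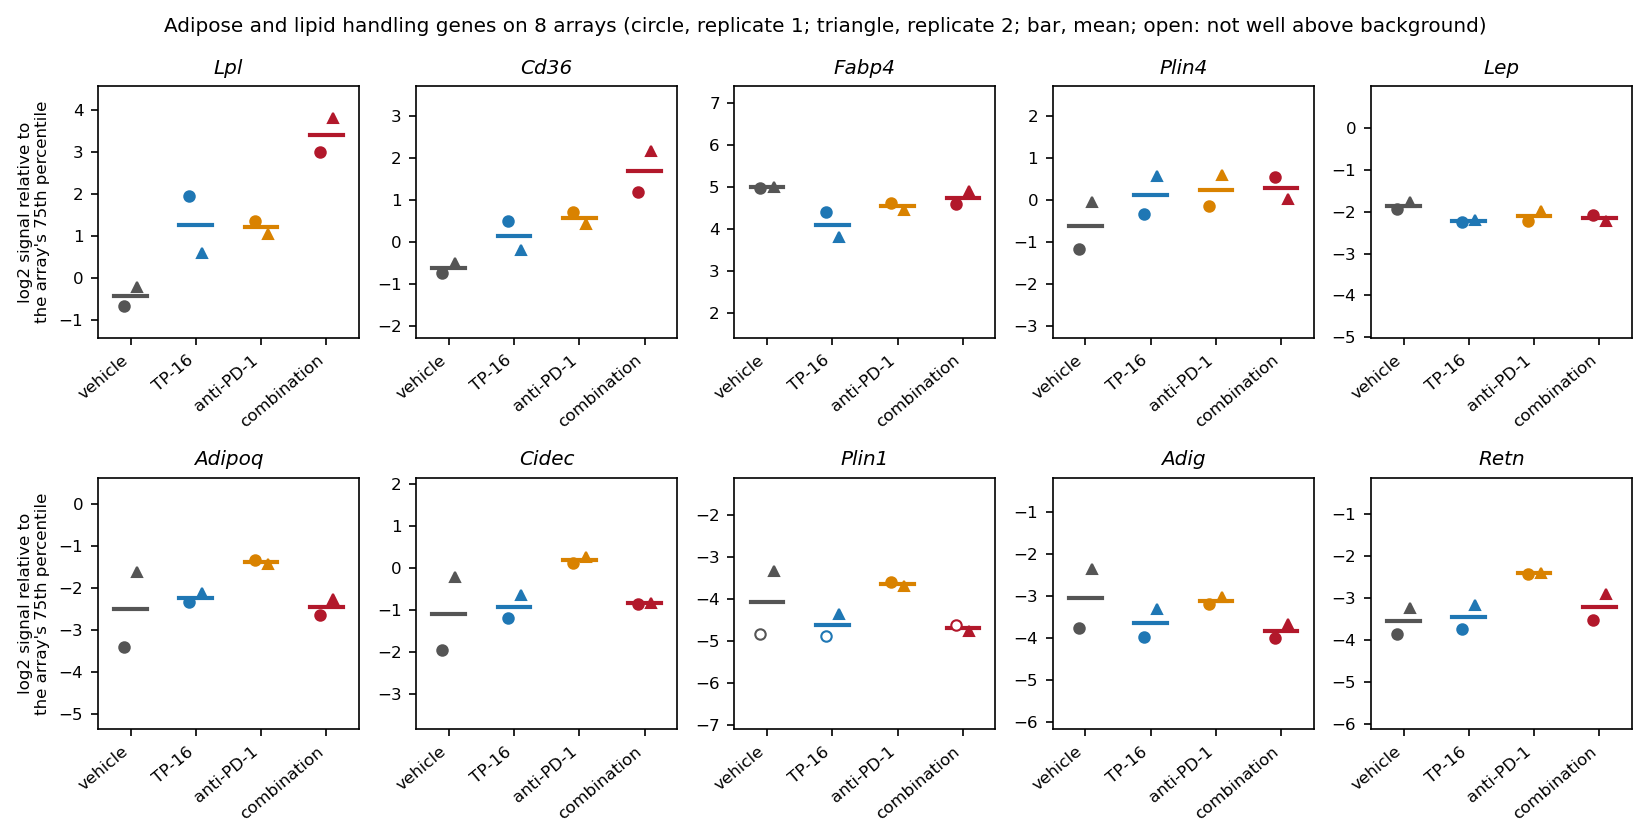
Level of each of the 10 genes (log2 signal relative to the 75th percentile of the array, vertical axis; every panel spans the same number of log2 units) in the 4 treatment groups, with 2 arrays per group (circle, replicate 1; triangle, replicate 2), the group mean as a bar and open symbols for signals not well above background. Lpl and Cd36 were highest on both combination arrays, whereas Adipoq, Cidec, Plin1 and Adig differed by 1.41 to 1.80 between the 2 vehicle arrays.

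Against each single agent the combination was again higher for Lpl and Cd36. Lpl in the combination was 4.35-fold above TP-16 (2.12 ± 0.50; limma adjusted p = 0.135) and 4.56-fold above anti-PD-1 (2.19 ± 0.50; limma adjusted p = 0.0802). Cd36 was 2.89-fold above TP-16 (1.53 ± 0.38; limma adjusted p = 0.138) and 2.15-fold above anti-PD-1 (limma adjusted p = 0.145), the last not called without combination replicate 2, where the log2 difference was 0.62, or without anti-PD-1 replicate 1 (1.26) or 2 (0.95). The Lpl difference from TP-16 ranged from 1.44 without TP-16 replicate 2 to 2.80 without TP-16 replicate 1, called in both. By the methods' t-test neither gene was called against TP-16, and Lpl but not Cd36 was called against anti-PD-1. With all Lpl probes averaged, Lpl was not called against anti-PD-1 (1.29). In the limma fit these 2 genes were the members called in either comparison, both higher, where 4.88% of all tested genes were called against TP-16 (3.99% higher) and 4.72% against anti-PD-1 (2.39% higher). On the log2 scale the combination did not depart measurably from the sum of the single agents: the departure was 0.47 for Lpl (95% interval -1.27 to 2.21) and 0.35 for Cd36 (-0.97 to 1.66), intervals wide enough to hold a departure of more than 2-fold in either direction for Lpl. With single arrays left out the departure had no settled sign, at -0.21 (without TP-16 replicate 2) to 1.15 (without TP-16 replicate 1) for Lpl and -0.13 (without combination replicate 2) to 0.83 (without combination replicate 1) for Cd36.

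The 6 Lpl probes did not all move together. A_52_P257812 gave -3.30 and -2.59 with vehicle, -0.46 and -1.77 with TP-16, -1.24 and -1.68 with anti-PD-1, and 0.20 and 1.04 with the combination, the order of the brightest probe. Its combination difference was 3.57 ± 0.53 (limma adjusted p = 0.0109). A_66_P123790, nearer the start of the same transcript, gave -5.54 and -2.72 with vehicle and -2.52 and -1.43 with the combination, a difference of 2.15 ± 0.97 that did not pass (limma adjusted p = 0.138), and its signal on vehicle replicate 1 was not well above background. The other 3 probes, which the annotation places at lower coordinates of the same locus on records ENSMUST00000101463, AK170106 and AK154419, differed between combination and vehicle by -0.23, -0.46 and 0.51, none of which passed. Averaging all 6 probes lowered the Lpl combination difference to 1.56 and left 0.00 with TP-16 and 0.27 with anti-PD-1. The Lpl values thus stand for the 2 brightest probes, both on transcript NM_008509.

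**Figure D2:**
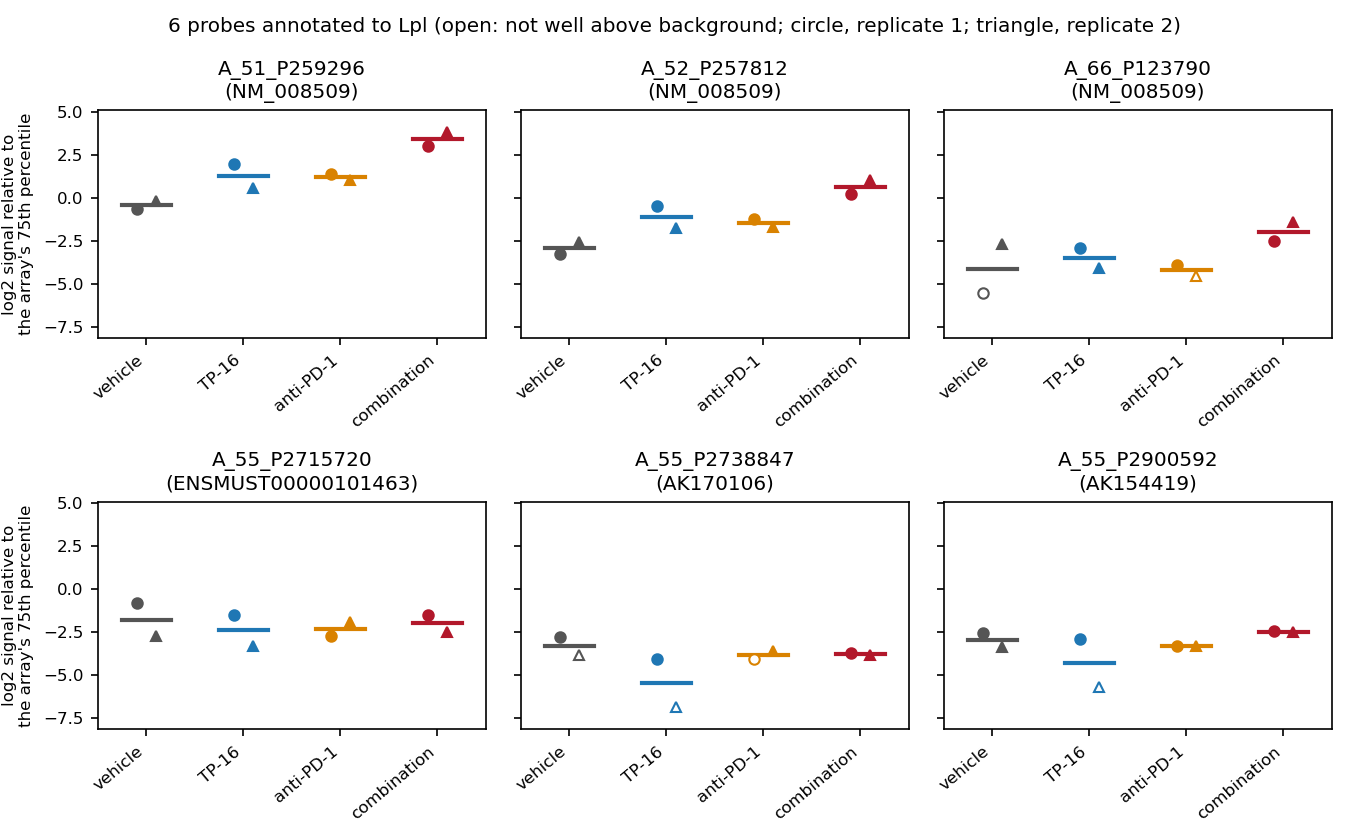
Level of the 6 probes annotated to Lpl (log2 signal relative to the 75th percentile of the array) in the 4 groups, with circles for replicate 1, triangles for replicate 2, bars for the group mean and open symbols for signals not well above background. The upper row holds the probes on NM_008509, which were highest with the combination, and the lower row the probes on other records, whose combination means lay within 0.51 of vehicle.

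Fabp4 was the lipid carrier of the set and followed another pattern. Its level was 4.98 and 4.99 with vehicle, 4.39 and 3.81 with TP-16, 4.62 and 4.45 with anti-PD-1, and 4.58 and 4.89 with the combination. All treated arrays lay below vehicle, with the TP-16 mean the lowest, at -0.88 ± 0.22 relative to vehicle (limma adjusted p = 0.0977), which is under 2-fold. The second Fabp4 probe, whose sequence is given above, read 1.99 and 1.79 with vehicle and 1.40 and 0.82 with TP-16 (-0.78 ± 0.25; limma adjusted p = 0.133), and returned to 1.74 and 2.20 with the combination. The combination exceeded TP-16 by 0.63 on the first probe and 0.86 on the second, again under 2-fold. Fabp4 was the member called for a departure from additivity, with 1.08 ± 0.31 on the first probe (limma adjusted p = 0.557) and 1.28 ± 0.35 on the second (limma adjusted p = 0.540), where 3.26% of all tested genes were called (2.77% higher); it did not pass adjustment, and the departure was not called without TP-16 replicate 2 (0.80), anti-PD-1 replicate 2 (1.00) or combination replicate 2 (0.93). Over 13 endothelial markers the median difference from vehicle was -0.34 with TP-16, -0.26 with anti-PD-1 and 0.47 with the combination, with 1 called lower with TP-16 and none with anti-PD-1. For a departure 7 of the 13 were called, all positive, with a median of 1.04 (range 0.53 to 2.72) against 0.00 over all tested genes, and none passed adjustment. Their summed level was 34.8 to 36.3 times the 75th percentile with vehicle, 19.4 to 25.6 with TP-16, 26.0 to 28.3 with anti-PD-1 and 31.0 to 41.0 with the combination. The part of endothelium in the Fabp4 values was not tested. Against vehicle, TP-16 was called lower without its replicate 1 (-1.17).

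Adiponectin and CIDEC, the fat cell products with the strongest common course (r = 0.96 over 8 arrays), did not follow Lpl. Adipoq read -3.40 and -1.60 with vehicle, -2.32 and -2.12 with TP-16, -1.32 and -1.42 with anti-PD-1, and -2.63 and -2.25 with the combination. Cidec read -1.96 and -0.23 with vehicle, -1.21 and -0.66 with TP-16, 0.11 and 0.25 with anti-PD-1, and -0.86 and -0.84 with the combination. The combination and TP-16 arrays fell between the 2 vehicle arrays, and both anti-PD-1 arrays lay above both of them. Combination minus vehicle was 0.06 for Adipoq (95% interval -1.30 to 1.41) and 0.25 for Cidec (-1.08 to 1.57). These differences had no settled sign: without vehicle replicate 1 they were -0.84 and -0.62, without vehicle replicate 2 they were 0.96 and 1.11, where Cidec was called higher (limma adjusted p = 0.0396), and Adipoq read -0.28 after normexp background correction.

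With anti-PD-1 alone the same pair was higher by 1.13 (Adipoq; limma adjusted p = 0.397) and 1.27 (Cidec; limma adjusted p = 0.358), which did not pass. Without vehicle replicate 2 these became 2.03 (adjusted p = 0.0343, limma) and 2.14 (adjusted p = 0.0436, limma), and without vehicle replicate 1 they were 0.23 and 0.41. With the replicate block the anti-PD-1 difference of Cidec was called. The values of both genes depended on which vehicle array was used. With TP-16 they were called higher, by 1.18 and 1.02, only without vehicle replicate 2, and without vehicle replicate 1 the values were -0.62 and -0.71. Set against anti-PD-1 instead of vehicle, the combination was lower by -1.07 for Adipoq (95% interval -2.42 to 0.29), -1.03 for Cidec (-2.36 to 0.30) and -1.05 for Plin1 (-2.23 to 0.13). The combination arrays lay below both anti-PD-1 arrays for these 3 genes and for Retn and Adig, 5 of 10 in all, where 45.8% of all tested genes did so. None of the 5 was called, and Plin1 on combination replicate 1 was not well above background. Adipoq, Cidec and Plin1 were called by the methods' t-test and when either vehicle array was left out of the shared fit (limma adjusted p = 0.0824).

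Plin1, the droplet coat of fat cells, and Adig, a small protein of adipocyte differentiation, were dim. Plin1 read -4.82 and -3.32 with vehicle, -4.88 and -4.34 with TP-16, -3.59 and -3.69 with anti-PD-1, and -4.61 and -4.76 with the combination, and only 5 of its 8 signals were well above background. Adig read -3.75 and -2.35 with vehicle, -3.96 and -3.31 with TP-16, -3.19 and -3.01 with anti-PD-1, and -3.99 and -3.66 with the combination. The vehicle arrays spanned most of the range of both genes, and no comparison of these probes with vehicle passed. Combination minus vehicle was -0.62 for Plin1 (95% interval -1.79 to 0.56) and -0.78 for Adig (-1.95 to 0.39). Plin1 turned to 0.11 after quantile normalization. Without vehicle replicate 1, Plin1 was called lower at -1.37 and Adig at -1.48, and without vehicle replicate 2 the values were 0.14 and -0.08. With TP-16 they were called lower without vehicle replicate 1 (-1.30 and -1.29) and read 0.21 and 0.12 without vehicle replicate 2. With anti-PD-1 Plin1 read 1.18 without vehicle replicate 2, against a vehicle signal that was not well above background and so gives no measured size, and -0.32 without vehicle replicate 1, and Adig read 0.65 and -0.75 in the same order. A second tested Plin1 probe turned the direction with anti-PD-1: it was called lower than vehicle by -1.55 (limma adjusted p = 0.259), where the main probe read 0.43, and it put the combination above anti-PD-1 by 0.64 (limma adjusted p = 0.345). Its departure from additivity was also called, at 1.56 (limma adjusted p = 0.632), against -0.50 on the main probe. This probe was not well above background on either anti-PD-1 array, and the third was not well above background on any array.

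Retn, which encodes resistin, was called higher with anti-PD-1. It read -3.87 and -3.24 with vehicle, -3.75 and -3.17 with TP-16, -2.43 and -2.40 with anti-PD-1, and -3.53 and -2.92 with the combination. Both anti-PD-1 arrays stood above the other 6. The difference from vehicle was 1.13 ± 0.32, or 2.19-fold (limma adjusted p = 0.277), and fell to 0.36 after normexp background correction and to 0.82 without vehicle replicate 1, neither of which was called, and it was not called without anti-PD-1 replicate 2 (1.12) or by the methods' t-test either. Without vehicle replicate 2 it was 1.45. The combination differed from vehicle by 0.02 and 0.64, and TP-16 by -0.22 and 0.41, without vehicle replicate 1 and 2 in turn. The combination minus anti-PD-1 was -0.80 (limma adjusted p = 0.187), under 2-fold, and was called without combination replicate 2 (-1.11; limma adjusted p = 0.386). The second Retn probe gave 1.72 ± 0.72 for anti-PD-1 against vehicle (limma adjusted p = 0.352), which was not called, with vehicle replicate 1 not well above background.

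Leptin and Plin4 complete the set. Lep, the satiety hormone of fat cells, read -1.94 and -1.78 with vehicle, -2.24 and -2.21 with TP-16, -2.22 and -1.98 with anti-PD-1, and -2.09 and -2.23 with the combination. All 3 treatments lay slightly below vehicle, by -0.37 ± 0.13 (TP-16; limma adjusted p = 0.161), -0.25 ± 0.13 and -0.30 ± 0.13, all far under 2-fold. Without vehicle replicate 1 these were -0.45, -0.33 and -0.39, and without vehicle replicate 2 -0.29, -0.17 and -0.22. Plin4, a droplet coat protein of fat cells and muscle, read -1.18 and -0.06 with vehicle, -0.35 and 0.57 with TP-16, -0.14 and 0.60 with anti-PD-1, and 0.54 and 0.03 with the combination. Its differences from vehicle were 0.73, 0.85 and 0.91, each within an interval that included 0, and without vehicle replicate 2 it was called higher with anti-PD-1 (1.41) and the combination (1.47), and read 1.29 with TP-16. Without vehicle replicate 1 the 3 differences were 0.17, 0.29 and 0.35.

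**Figure D3:**
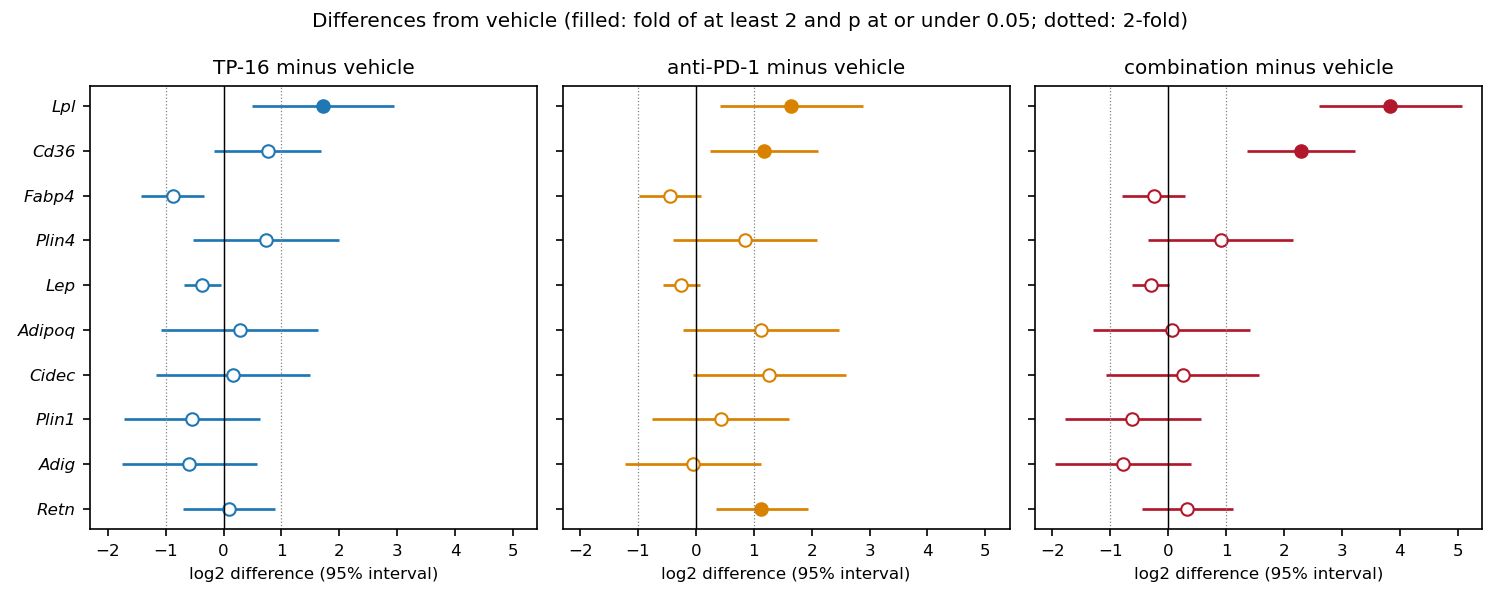
Log2 difference of each treatment from vehicle (horizontal axis; bars are 95% intervals of the limma fit, 2 arrays per group) for the 10 genes, filled where the fold was at least 2 with p at or under 0.05, and dotted lines at 2-fold. With the combination Lpl (3.84) and Cd36 (2.29) stood apart from 0, and the intervals of the other 8 genes included 0.

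Counted over the set, TP-16 called 1 of 10 genes (Lpl, higher) where 6.64% of all tested genes were called (1.56% higher). Anti-PD-1 called 3 (Lpl, Cd36 and Retn, all higher) where 4.11% were called (1.90% higher). The combination called 2 (Lpl and Cd36) where 17.0% were called (6.65% higher), and both passed adjustment, as did 35.6% of all tested genes. The median difference of the 10 genes was 0.12 with TP-16, 0.99 with anti-PD-1 and 0.15 with the combination, against -0.15, -0.10 and -0.24 over all tested genes. After quantile normalization 5.90%, 4.66% and 14.6% of all tested genes were called (3.73%, 3.46% and 9.49% higher). Without vehicle replicate 2, anti-PD-1 called 7 of the 10 genes higher, Plin1 among them against the dim vehicle signal, where 5.86% of all tested genes were called (4.30% higher), and without vehicle replicate 1 it called none of them where 6.84% were called (1.36% higher). The 3 comparisons share the vehicle arrays. The combination share of called members was thus close to that of all genes with both directions pooled. Both called members were higher, where 6.65% of all tested genes were, and they were the 2 genes of lipid release and uptake.

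Other adipocyte genes were called in both directions. Of 19 tested markers, 4 were called higher and 1 lower with the combination (median 0.41), 2 higher with anti-PD-1 (median 0.18), and 1 higher and 1 lower with TP-16 (median -0.14), beside the 17.0%, 4.11% and 6.64% called over all tested genes. Those higher with the combination were Mrap, an accessory protein of the ACTH receptor (2.62), Cebpa (1.48) and Pparg (1.17), transcription factors that fat cells share with macrophages, and Gpd1 (1.04), which makes the glycerol backbone of triglyceride. The lower one was Sncg, gamma-synuclein (-2.01). With anti-PD-1 the called markers were Cfd, adipsin (1.56), named after its values were seen, and Gpd1 (1.18). Mrap on vehicle replicate 1 was not well above background. Of 11 tested adipogenic transcription factors the combination called 3 higher, Nr1h3 (2.81) beside Cebpa and Pparg, and of 5 adipokine receptor genes it called 1 lower, the leptin receptor Lepr (-1.29).

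Of the genes that make, coat or break down lipid stores, 1 was called in a comparison with vehicle, where the combination called 17.0% of all tested genes. None of the 17 lipid synthesis genes was called with either single agent, and with the combination 1 was lower, the fatty acid elongase Elovl6 (-1.03 ± 0.24; limma adjusted p = 0.0273), with a median of -0.17. None of the 12 droplet coat and lipolysis genes was called in any comparison with vehicle, although 3 passed adjustment with the combination, beside 35.6% of all tested genes. The largest difference in the list, 1.39, did not. Among the 3 was Plin2, the droplet coat of macrophages and many other cells, named here after its values were seen, which read 4.52 and 4.53 with vehicle and 5.13 and 5.63 with the combination (0.85 ± 0.18; limma adjusted p = 0.0201).

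Among 17 tested genes of fatty acid uptake and binding, 3 were called higher and 2 lower with the combination (median 0.06). Over all tested genes 17.0% were called (6.65% higher). Acsl1, which activates fatty acids, was higher by 1.42 ± 0.20 (limma adjusted p = 0.0105), and Fabp5, a fatty acid carrier of macrophages and epithelium, by 1.06 ± 0.30 (limma adjusted p = 0.0450). Fabp7 was also higher and the transporter Slc27a2 lower, with Fabp7 not well above background on either vehicle array and Slc27a2 on none of the treated arrays. Gpihbp1, which anchors lipoprotein lipase on capillary endothelium, went the other way from Lpl: it read 3.49 and 3.66 with vehicle, 2.31 and 2.20 with TP-16, 2.62 and 2.59 with anti-PD-1, and 2.29 and 2.54 with the combination. It was lower by -1.33 ± 0.13 with TP-16 (limma adjusted p = 0.0513) and by -1.16 ± 0.13 with the combination (adjusted p = 0.0102), and by -0.97 with anti-PD-1. Lmf1, which folds the lipase, and Angptl4, which inhibits it, both named after their values were seen, differed from vehicle with the combination by -0.04 and 0.06.

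With the combination 9 of 16 tested macrophage identity genes were called higher and none lower (median 1.01, range -0.73 to 2.06), where 6.65% of all tested genes were called higher, with Adgre1, which encodes F4/80, higher by 2.06 ± 0.36 and Aif1 by 1.57 ± 0.51. With TP-16 and with anti-PD-1 none of the 16 was called (medians 0.24 and 0.23). Of 22 tested genes of macrophage lipid uptake and efflux, 5 were called higher and none lower (median 0.49): the liver X receptor Nr1h3 (2.81 ± 0.52), the cholesterol exporters Abcg1 (2.71 ± 0.40) and Abca1 (1.67 ± 0.21), the lysosomal lipase Lipa (1.56 ± 0.28) and Fabp5. The scavenger receptor Msr1 and the lipid receptor Trem2, named after their values were seen, read 0.19 and 0.41 above vehicle without passing. With anti-PD-1, Nr1h3 (1.60) and Abcg1 (1.03) were called as well.

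Mean levels per array place these groups beside each other. The macrophage lipid genes ranged over 2.48 and 2.70 with vehicle, 2.85 and 2.68 with TP-16, 3.02 and 2.93 with anti-PD-1, and 3.30 and 3.46 with the combination. The mean of Adipoq, Plin1 and Cidec was -2.80 and -2.37 with TP-16, -1.60 and -1.62 with anti-PD-1, and -2.70 and -2.62 with the combination, all inside or just above the vehicle range. Over the 8 arrays the macrophage lipid mean correlated with Lpl at r = 0.95 and with Cd36 at r = 0.98, and with the mean of Adipoq, Plin1 and Cidec at r = 0.11. The macrophage identity mean gave 0.93, 0.96 and -0.01. This mean was highest on both combination arrays (4.47 and 4.78), but the summed linear level of the same genes overlapped between groups. That sum was 953 to 1030 times the 75th percentile with the combination, 863 to 969 with anti-PD-1, 787 to 803 with TP-16 and 751 to 907 with vehicle. The summed macrophage lipid and fibroblast levels were highest with the combination, at 460 to 600 and 504 to 543. Of 12 fibroblast markers 6 were called higher with the combination (Col1a1 by 1.95 and Postn by 1.98), where 6.65% of all tested genes were. The fibroblast mean correlated with Lpl at 0.86 and with Cd36 at 0.92, and the adipocyte marker mean at 0.50 and 0.57. The mean of the adipogenic transcription factors, among which Nr1h3, Cebpa and Pparg are also genes of macrophages, gave 0.94 with Lpl, 0.96 with Cd36 and 0.09 with the mean of Adipoq, Plin1 and Cidec. Strong negative values were also seen, with -0.92 (Lpl) and -0.88 (Cd36) for the adipokine receptors and -0.92 and -0.85 for 3 mammary epithelium genes. These are descriptions over arrays that share their groups, and lists that differ between groups in either direction reach such values. The part of macrophages, fibroblasts or fat cells in the Lpl and Cd36 signal was not tested.

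**Figure D4:**
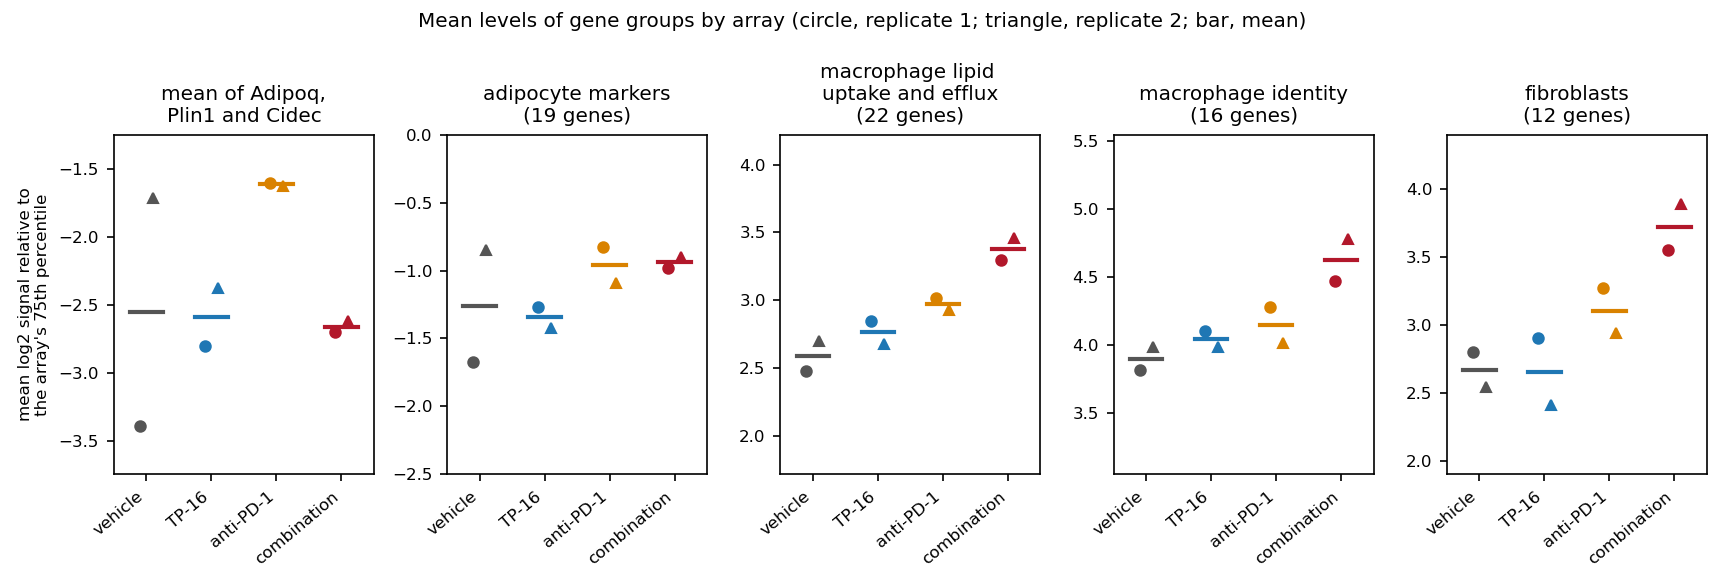
Mean log2 signal relative to the 75th percentile of the array (vertical axis, the same span in every panel) for Adipoq, Plin1 and Cidec, and for the tested genes of 4 lists, on the 2 arrays of each group (circle, replicate 1; triangle, replicate 2; bar, mean). Macrophage and fibroblast means were highest on both combination arrays, and the fat cell mean was -3.39 and -1.71 on the vehicle arrays. The summed linear level of the macrophage identity genes, not drawn, overlapped between the combination and anti-PD-1.

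Markers of other tissues near the skin were looked at for the same arrays, beside the 17.0% of all tested genes called with the combination (6.65% higher). Of 16 skeletal muscle genes 3 were called higher with the combination, led by Actn3 (1.49), Myh1 (1.27) and Atp2a1 (1.02), and none passed adjustment. Of 13 endothelial genes 2 were higher (Vwf by 1.54 and Tek by 1.26) and 1 lower (Gpihbp1). Of 3 tested mammary epithelium genes Csn3, a milk casein, was lower by -3.38, of 6 epidermal and sebaceous genes Awat2 by -1.69, of 6 colon epithelium genes Cdx2 was the 1 lower, and of 10 neutrophil genes S100a8 and S100a9 were lower by -1.09 and -1.20, against a median of 0.40 and a highest value of 1.99 in that list. Single arrays stood apart for some of these tissues. The summed level of the 6 epidermal and sebaceous genes was 32.8 times the 75th percentile on TP-16 replicate 2 and 33.9 on anti-PD-1 replicate 2, against 6.95 to 9.38 on the other 6 arrays, and that of the muscle genes was 126 on anti-PD-1 replicate 1 and 52.8 on anti-PD-1 replicate 2. Their part in the values of the 10 genes was not tested.

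The genes with the course nearest to each class were taken from 21474 other genes. Nearest to the mean of Adipoq, Plin1 and Cidec were Zbtb2 (r = 0.956 over 8 arrays), AA142551 (0.943) and Gm12298 (0.943), followed at 0.936 to 0.909 by Psme2b, Insl6, Hp, Spink2, Amhr2 and 2 unnamed loci. Nearest to Cd36 were Il21r (0.993), Pigz (0.993), Rab39 (0.992), Cmtm6 (0.991) and Rnf144b (0.990), then Adgre5, Dkk3, Cpz, Vopp1 and 1 unnamed transcript. These genes were picked for their course over the same arrays, so their differences between groups are not given.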

How the data were processed

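The 4 groups, of 2 samples each, and the replicate numbers came from the labels of the samples; the paper's methods name TRIzol for RNA, the labels column kits. The authors deposited scanner output for 8 one-colour arrays, made with Agilent Feature Extraction 10.7.1.1, whose processed intensity is background-subtracted and detrended, and a table of log2 values normalized in GeneSpring by a method not given in the sources used here (its sorted columns differed by at most 0.00115).

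Control spots and 38 probes with outlier marks on all spots of an array were removed, spots of a probe were averaged, and the 75th percentile of log2 intensity was subtracted per array. Probes for which some group had both arrays well above background entered 1 limma fit of 4 group means (limma 3.58.1, R 4.3.3, 31912 probes, 4 residual degrees of freedom). The fit was tested on simulated data. Genes stand by their brightest probe on average (21484 genes), named from the array's own annotation. The genes described, the 15 other gene lists (adipocyte markers, lipid synthesis, droplet coat and lipolysis, fatty acid uptake, adipogenic transcription factors, adipokine receptors, macrophage lipid handling, macrophage identity, endothelium, muscle, epidermis, fibroblasts, neutrophils, mammary and colon epithelium) and the tests were chosen with earlier results of these data known. Genes of a list could be named if called in the combination, up to 5 by size. For some lists, such as the fibroblasts, only part of these are named. Others are marked in the text as named after their values were seen. Neighbours are the 10 highest Pearson correlations. Figures used Python 3.11.15 and matplotlib 3.10.9. The number of arrays limits the precision.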

Additional observations from a re-analysis of the deposited data

Results flagged for a closer look

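Fabp4 was picked out because its combination value departed from the sum of the 2 single agents by 1.08 on the log2 scale. Both single agents lay below vehicle and the combination lay back near it, on both Fabp4 probes. Of 13 endothelial markers 7 were also called for a departure, with a median of 1.04, among them Gpihbp1 (1.14). Over all tested genes 3.26% were called (2.77% higher), and none of the 13 markers passed adjustment. The part of endothelium in the Fabp4 value was not tested. The Fabp4 departure passed the threshold before adjustment and did not pass after it (limma adjusted p = 0.557). Its count among the 10 genes was 0 without TP-16 replicate 2, without anti-PD-1 replicate 2 and without combination replicate 2.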

How the results depend on the processing

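Lpl and Cd36 were called higher with the combination against vehicle in every alternative run, with log2 differences of 1.56 to 4.25 and 1.81 to 2.77 and adjusted p-values of up to 0.174 and 0.186, both by the methods' t-test. With single arrays left out, the number of the 10 genes called against vehicle ranged from 1 to 3 for TP-16 (3 without vehicle replicate 2), from 0 to 7 for anti-PD-1 (0 without vehicle replicate 1 and 7 without vehicle replicate 2, Plin1 against a dim vehicle signal, where 6.84% and 5.86% of all tested genes were called) and from 2 to 4 for the combination (4 without either vehicle array, where 18.7% and 17.2% of all tested genes were called). With TP-16, 8.67% of all tested genes were called without vehicle replicate 2. For the combination against TP-16 the number stayed at 2, where 2.47% to 6.95% of all tested genes were called. Against anti-PD-1 it was lowest at 1 (without either anti-PD-1 array, where 5.29% and 3.54% of all tested genes were called). It was highest at 5 (without either vehicle array, where 5.47% were called). For the departure from additivity it ranged from 0 to 5 (without vehicle replicate 2, where 4.91% of all tested genes were called). Anti-PD-1 called 1 gene after normexp (where 1.01% of all tested genes were called higher). The combination against anti-PD-1 called 5 genes in a fit of the compared groups only (5.85% of all tested genes) and 1 with probes averaged (4.52%). The methods' t-test called 0 genes for TP-16 (1.85% of all tested genes), 0 for the combination against TP-16 (1.86%) and 4 for the combination against anti-PD-1 (2.00%). With probes averaged TP-16 called 0 (6.72%). The departure called 2 genes after quantile normalization (2.77%), 2 on the deposited log2 values (2.77%) and 2, Fabp4 and Plin1, with the second probe of a gene, an alternative chosen after seeing the data.

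Of the differences from vehicle that changed sign, 1 was called after the change. After quantile normalization and on the deposited log2 values alike, TP-16 against vehicle gave 0.22 for Plin1, anti-PD-1 0.12 for Adig, and the combination 0.04 for Fabp4 and 0.11 for Plin1. After normexp, Adipoq gave -0.09 and Retn -0.23 with TP-16, and -0.28 and -0.29 with the combination. With single arrays left out, TP-16 against vehicle ranged from -1.30 to 0.21 for Plin1, -0.71 to 1.02 for Cidec, -0.62 to 1.18 for Adipoq, -0.22 to 0.41 for Retn and -1.29 to 0.12 for Adig. Anti-PD-1 ranged from -0.32 to 1.18 for Plin1 and -0.75 to 0.65 for Adig, and the combination from -1.37 to 0.14 for Plin1, -0.62 to 1.11 for Cidec and -0.84 to 0.96 for Adipoq. The lower ends came without vehicle replicate 1 and the upper ends without vehicle replicate 2. With all probes averaged Plin1 gave -0.56 for anti-PD-1, with the second probe it gave a called -1.55, on arrays where that probe was not well above background with anti-PD-1, and Fabp4 gave 0.08 for the combination. The causes were not tested. Correlations of replicate differences between groups had no common sign (-0.19 to 0.29). The replicate block moved the anti-PD-1 count to 4 genes, with Cidec added, where 4.08% of all tested genes were called. It left the other 5 counts at 1, 2, 2, 2 and 1, where 7.06%, 17.4%, 4.78%, 4.97% and 3.27% of all tested genes were called. Subtracting the 75th percentile left the median of all tested probes at -0.20 for the combination, against -0.013 after quantile normalization and -0.28 after normexp.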
